A study of Mus musculus with 16 samples.

Results

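The Fc gamma receptors, which bind the constant part of immunoglobulin G, were described together with the adaptors and the kinase that carry their signal in the mouse aorta. The 7 genes Fcgr1, Fcgr2b, Fcgr3, Fcgr4, Fcer1g, Tyrobp and Syk were chosen by their GENCODE symbols out of 52636 genes in the count table, and all 7 passed the filter on low counts. RNA sequencing had been carried out on the descending thoracic aorta, the stretch of the vessel within the chest. The groups were C57BL/6J control, C57BL/6J with hypertension induced by angiotensin II (AngII), 129S6/SvEvTac control and 129S6/SvEvTac with AngII, each with 4 libraries. AngII, a hormone of the renin-angiotensin system, narrows arteries and drives blood pressure up. The sources used here do not give its dose and duration, what the controls received, or the age and sex of the mice. Nothing in the labels states that each library is 1 animal, so a p-value here covers only the spread among these libraries, which may be technical.

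Activating Fc gamma receptors of macrophages, monocytes, neutrophils and natural killer cells bind antibody-coated material and pair with the FcR gamma chain, encoded by Fcer1g. Clustering of the receptors leads Src-family kinases to phosphorylate the tyrosine motifs of the gamma chain, and the kinase Syk docks on these motifs and starts phagocytosis, oxidant release and cytokine production. Tyrobp encodes DAP12, a related adaptor that serves other receptors such as Trem2, while Fcgr2b encodes the inhibitory receptor, which recruits the phosphatase SHIP1 in place of Syk. In the vessel wall these genes are known mainly from macrophages.

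On GRCm38, 4 of the 7 genes lie on chromosome 1. Fcgr2b spans chr1:170958617-170976547 on the minus strand and is followed after 42372 bases by Fcgr4 at chr1:171018920-171029761 on the plus strand. Fcgr3 lies a further 21412 bases on at chr1:171051174-171064935 on the minus strand, and Fcer1g lies 164636 bases beyond it at chr1:171229572-171234365, also on the minus strand. Fcgr1 is on chromosome 3 (chr3:96282909-96293969, minus strand), Tyrobp on chromosome 7 (chr7:30413760-30417585, plus strand) and Syk on chromosome 13 (chr13:52583173-52648792, plus strand). All 7 are annotated as protein-coding. The outer parts of the Fcgr2b and Fcgr3 proteins are encoded by nearly identical sequence, so the counting could have divided their reads differently, and both values are uncertain to that extent. Fcgr2b also shares 155 exon bases with Gm38204 on the opposite strand, and whether the counting used strand is not stated in the sources used here.

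Promoter windows were read from RefSeq (GRCm38.p6) for 6 of the 7 genes, because the receptors moved together across the groups. In macrophages, Fc receptor promoters are known targets of the transcription factor PU.1, whose core letters GAGGAA were searched on both strands together with the longer AGAGGAAG, which contains them. The STAT letters TTCNNNGAA were searched for the interferon response known for Fcgr1. Within 300 bases, AGAGGAAG matched in 4.51% of 27025 promoters, GAGGAA in 28.3% and TTCNNNGAA in 8.47%. AGAGGAAG matched on the strand opposite the gene in Fcgr1 (bases -56 to -49 from the start), in Fcgr4 (-23 to -16) and in Fcgr3 (-7 to 0, where 0 is the start base). It was not among the letters of the Fcgr2b, Fcer1g and Syk windows, and TTCNNNGAA matched in Fcgr1 alone among the 6 (-109 to -101). Fcgr3 and Syk had 2 RefSeq entries each, of which only the first was read. For Syk all 130 bases before the start lay in annotated exons of the gene. The sequences of the 3 activating receptors with a match are shown beside that of the inhibitory receptor, 5′ to 3′ on the strand of each gene, with annotated exons left out and matches in capitals. A match is a run of letters and was not tested as a binding site.
Fcgr1, chr3:96293970-96294099, minus strand: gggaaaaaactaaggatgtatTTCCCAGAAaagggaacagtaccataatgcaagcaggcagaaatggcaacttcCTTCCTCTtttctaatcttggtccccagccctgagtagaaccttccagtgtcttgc
Fcgr4, chr1:171018796-171018919, plus strand, bases -130 to -7: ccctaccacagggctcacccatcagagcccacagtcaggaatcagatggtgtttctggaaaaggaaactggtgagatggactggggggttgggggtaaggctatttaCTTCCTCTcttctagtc
Fcgr3, chr1:171059404-171059533, minus strand, inside the GENCODE gene and before a RefSeq start: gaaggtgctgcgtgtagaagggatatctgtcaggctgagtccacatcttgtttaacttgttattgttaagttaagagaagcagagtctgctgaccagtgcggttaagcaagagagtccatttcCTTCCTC
Fcgr2b, chr1:170976128-170976190, minus strand, inside the GENCODE gene, bases -119 to -57 with the other 67 of 130 bases in exons: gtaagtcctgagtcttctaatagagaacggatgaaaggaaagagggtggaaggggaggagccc

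Library totals ran from 42116120 to 61381134 counts in 15 libraries and reached 121573945 in 129S6/SvEvTac AngII replicate 5. Values are given as CPM, read counts scaled to a common library total after adjustment by the trimmed mean of M values (TMM). A gene was called when the p of edgeR's quasi-likelihood test, adjusted by Benjamini-Hochberg over the 17125 genes tested, was below 0.05. Calls in either direction were made for 38.9% of genes for AngII in C57BL/6J, 12.2% for AngII in 129S6/SvEvTac, 9.96% for the difference of these effects, 10.4% between control strains and 31.3% between strains with AngII. The share of calls that were higher was 56.1%, 63.3% and 53.6% in the first 3 of these comparisons, and became 45.4%, 25.2% and 65.2% when only library totals were used for scaling. For AngII in 129S6/SvEvTac that scaling placed the all-gene median at -0.16 on the log2 scale. The 6 smooth muscle markers, which define the tissue, summed to between 36324 and 45757 CPM in the other 3 groups and to between 12494 and 29534 CPM in C57BL/6J AngII.

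In control C57BL/6J aorta the adaptors and Fcgr3 had the highest levels per length of transcript. Mean CPM per kilobase of exon was 16.5 ± 3.26 for Tyrobp (SD, n = 4), 11.2 ± 1.53 for Fcgr3 and 9.36 ± 0.911 for Fcer1g. The other 4 genes were lower, with 1.77 ± 0.267 CPM per kilobase for Fcgr2b, 1.37 ± 0.248 for Syk, 1.09 ± 0.0866 for Fcgr1 and 0.381 ± 0.160 for Fcgr4. The ranges of Fcgr3 and Fcer1g overlapped, as did those of Fcgr2b with Syk and of Syk with Fcgr1. These ranges run across libraries, although the genes were read in the same libraries. Within each library Fcgr2b lay above Syk and Fcgr3 at or above Fcer1g, whereas Syk and Fcgr1 changed order between libraries. Tyrobp lay above Fcgr3, and Fcgr4 lay below Fcgr1, in every library of the group. The same 3 genes led in the other groups. In C57BL/6J AngII, Tyrobp had 61.5 ± 20.7 CPM per kilobase, Fcer1g 39.8 ± 13.5 and Fcgr3 39.5 ± 12.5. The ranges of these 3 overlapped, but Tyrobp was the highest of the 3 within every library. In 129S6/SvEvTac controls the order ran from Tyrobp at 11.3 ± 3.15 CPM per kilobase through Fcgr3 at 5.07 ± 1.39 and Fcer1g at 3.99 ± 1.01 to Fcgr4 at 0.218 ± 0.160. In 129S6/SvEvTac AngII it ran from Tyrobp at 12.4 ± 4.02 CPM per kilobase to Fcgr4 at 0.600 ± 0.0769 and Fcgr1 at 0.581 ± 0.252, whose ranges overlapped.

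AngII in C57BL/6J was accompanied by higher levels of every one of these genes. All 7 were called higher, against 21.8% of all genes tested (17.1% were called lower), and for all 7 every AngII library lay above every control library, against 19.2% of all genes. The median log2 fold change of the 7 was 2.12, beside 0.01 over all genes tested. Among the activating receptors, Fcgr4, a receptor for certain immunoglobulin G subclasses that was almost silent in controls, had the largest fold change. Fcgr4 was at 0.352, 0.561, 0.722 and 0.282 CPM in control replicates 1, 2, 3 and 5, from 14 to 36 counts a library. It was at 11.2, 3.38, 3.29 and 8.47 CPM in AngII replicates 1, 2, 3 and 5, a 13.7-fold difference (log2 3.78 ± 0.52 SE, edgeR adjusted p = 4.92e-05). Replicates 1 and 5 were the high ones with AngII, and replicates 2 and 3 were lower but still above every control.

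Fcgr1, the high-affinity receptor, stood at 2.75, 3.09, 2.89 and 2.55 CPM in the C57BL/6J controls, the smallest spread relative to its mean among the 7 genes. With AngII it reached 19.8, 12.2, 9.01 and 21.1 CPM, a 5.51-fold rise (log2 2.46 ± 0.31, edgeR adjusted p = 2.81e-05). The lowest AngII library, replicate 3, was still above every control. Fcgr3, the low-affinity activating receptor, was at 20.1, 15.9, 22.4 and 19.1 CPM in controls and at 89.7, 64.8, 39.9 and 80.0 CPM with AngII. Its 3.54-fold rise (log2 1.82 ± 0.28, edgeR adjusted p = 0.000119) was the smallest of the 7, and replicate 3 was again the lowest. Fcgr2b, the inhibitory receptor, rose from 11.6, 8.85, 8.94 and 11.5 CPM to 69.7, 43.9, 43.2 and 79.1 CPM. The 5.76-fold rise of Fcgr2b (log2 2.53 ± 0.38, edgeR adjusted p = 0.000114) thus accompanied the rises of the activating receptors, with replicates 1 and 5 high and 2 and 3 lower.

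The adaptors and the kinase followed the receptors in C57BL/6J. Fcer1g, the chain that the activating receptors need for signalling, was at 7.29, 8.03, 9.22 and 8.18 CPM in controls and at 43.0, 29.3, 21.0 and 46.1 CPM with AngII. This was a 4.26-fold rise (log2 2.09 ± 0.27, edgeR adjusted p = 3.05e-05) without overlap. Tyrobp was at 9.18, 9.02, 13.0 and 12.7 CPM in controls and at 51.2, 31.9, 26.6 and 54.4 CPM with AngII, a 3.74-fold rise (log2 1.90 ± 0.29, edgeR adjusted p = 0.000113). Syk, the kinase that docks on both adaptors, was at 12.3, 9.77, 14.3 and 15.0 CPM in controls and at 60.9, 54.3, 37.8 and 69.8 CPM with AngII. Its 4.34-fold rise had the smallest adjusted p of the 7 (log2 2.12 ± 0.20, edgeR adjusted p = 2.7e-06). Replicates 1 and 5 were the 2 highest and replicate 3 the lowest of the AngII libraries for Fcer1g, Tyrobp and Syk alike. In whole tissue, more cells of a type and more RNA per cell cannot be told apart.

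**Figure D1:**
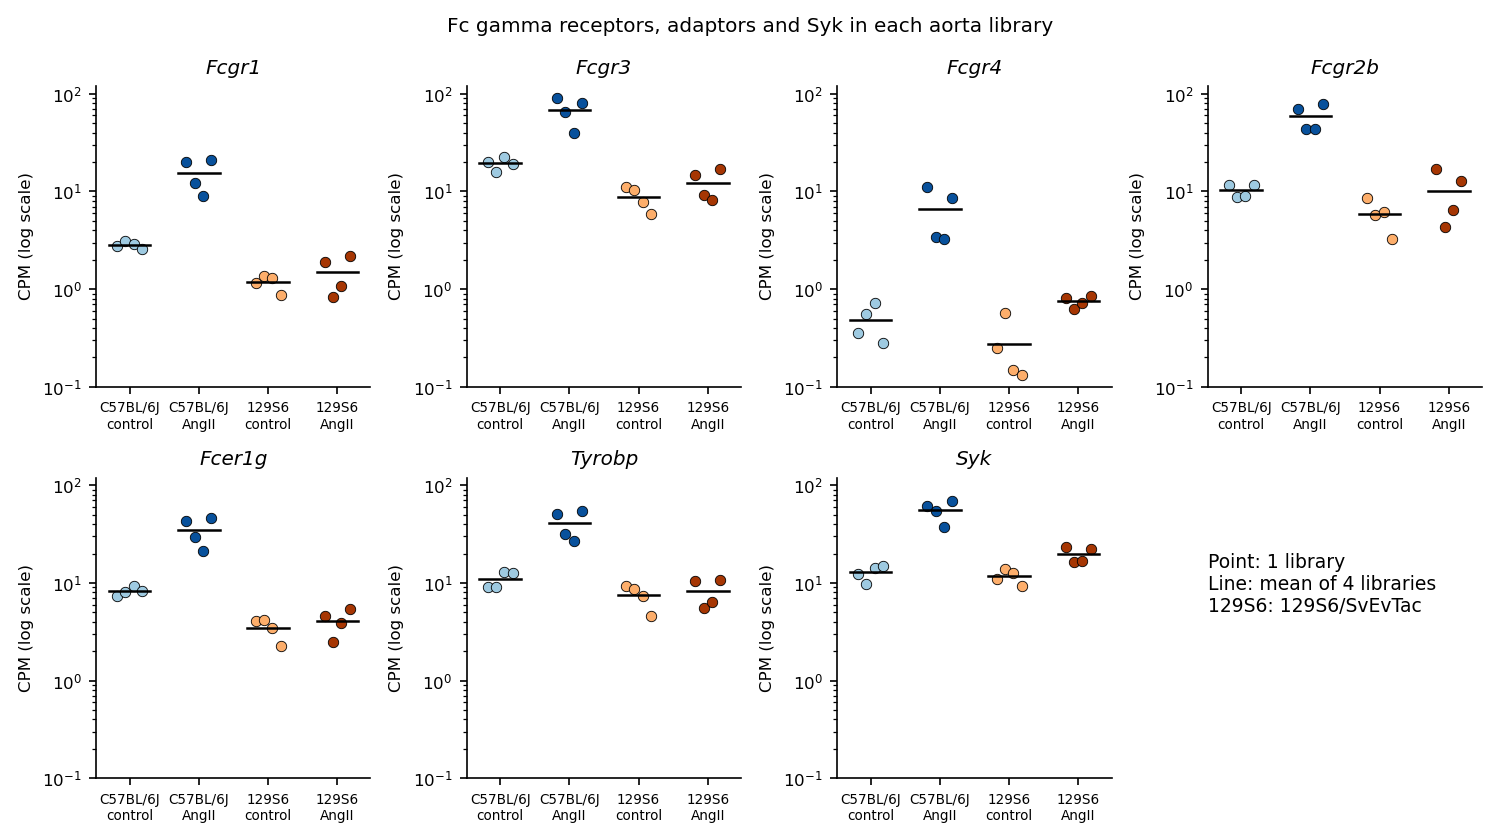
CPM of each gene (log axis) in each of the 16 libraries, with the 4 groups on the horizontal axis, a point per library and a line at the group mean. For all 7 genes the 4 C57BL/6J AngII libraries lie above the other 3 groups, and in 129S6/SvEvTac the AngII points overlap the control points for 5 genes and lie above them for Fcgr4 and Syk.

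Markers of other cell types moved in the same libraries. All 12 macrophage markers were called higher with AngII in C57BL/6J, and their summed level was between 1229 and 2466 CPM, beside 417 to 579 CPM in controls, with none of the 12 at 0. As for the Fc receptor genes, the AngII libraries fell into a higher and a lower pair, with replicates 1 and 5 at 2209 and 2466 CPM and replicates 2 and 3 at 1292 and 1229 CPM. Of the 8 adipocyte markers 7 were called higher, and their summed level ran from 172 to 3769 CPM with AngII, again highest in replicates 1 and 5, beside 98.2 to 325 CPM in controls. All 6 smooth muscle markers were called lower. A further fit used scores of adipocyte markers and of skeletal and cardiac muscle markers as covariates, and smooth muscle markers were not a covariate. In that fit all 7 genes kept their calls in C57BL/6J at smaller sizes. Their log2 fold changes ran from 1.16 for Fcgr3 (edgeR adjusted p = 0.0139) to 2.47 for Fcgr4 (0.00463). The part of macrophage number or of the lower smooth muscle marker levels in these rises was not tested.

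In 129S6/SvEvTac, 1 of the 7 genes was called with AngII, against 7.71% of genes called higher and 4.47% called lower. Syk was at 10.9, 14.0, 12.6 and 9.36 CPM in control replicates 1, 2, 3 and 4 and at 23.3, 16.5, 16.9 and 22.3 CPM in AngII replicates 1, 2, 4 and 5. The groups did not overlap, and the rise was 1.68-fold (log2 0.75 ± 0.19, edgeR adjusted p = 0.0197). The call was lost, with adjusted p between 0.0676 and 0.0799, when AngII replicate 1 or 5 or control replicate 1 or 4 was left out, and with library totals alone as scaling (0.0594). Fcgr4 was the other gene without overlap, so that 2 of 7 had every AngII library above every control, against 12.4% of all genes. Its values were 0.249, 0.564, 0.148 and 0.133 CPM in controls and 0.812, 0.631, 0.725 and 0.847 CPM with AngII (log2 1.44 ± 0.50, edgeR adjusted p = 0.0771). Control replicate 2 was the high one, and without it the Fcgr4 difference was called (log2 2.07, adjusted p = 0.0242).

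The other 5 genes were not called in 129S6/SvEvTac, and their groups overlapped. Fcgr1 was at 1.15, 1.37, 1.31 and 0.865 CPM in controls and at 1.92, 0.833, 1.08 and 2.19 CPM with AngII, with a log2 difference of 0.37 and a 95% confidence interval from -0.30 to 1.04. Fcgr2b was at 8.57, 5.74, 6.16 and 3.24 CPM in controls and at 16.8, 4.32, 6.39 and 12.7 CPM with AngII (log2 0.76, interval -0.02 to 1.55). Fcgr3 was at 11.2, 10.3, 7.81 and 5.90 CPM and at 14.7, 9.16, 8.12 and 16.8 CPM (log2 0.47, interval -0.11 to 1.06). For all 3 receptors AngII replicates 1 and 5 lay above replicates 2 and 4, which were among the control values or below them. Fcer1g was at 4.11, 4.14, 3.42 and 2.26 CPM in controls and at 4.62, 2.50, 3.86 and 5.47 CPM with AngII (log2 0.25, interval -0.32 to 0.82). Tyrobp was at 9.41, 8.69, 7.41 and 4.64 CPM and at 10.5, 5.55, 6.41 and 10.7 CPM (log2 0.14, interval -0.46 to 0.74), and its sign turned under some alternatives, such as scaling by library totals alone (-0.02).  Control replicate 4 was the lowest control for all 7 genes. Of the 12 macrophage markers 1 was called higher in this strain, near the 7.71% of all genes called higher. Their summed level was 219 to 388 CPM in controls and 275 to 551 CPM with AngII. Of the 5 endothelial markers 2 were called higher, and their summed level was 2230 CPM in AngII replicate 2, beside 686 to 1092 CPM in the other 3 AngII libraries and 599 to 1003 CPM in controls. The part of either list in these values was not tested.

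**Figure D2:**
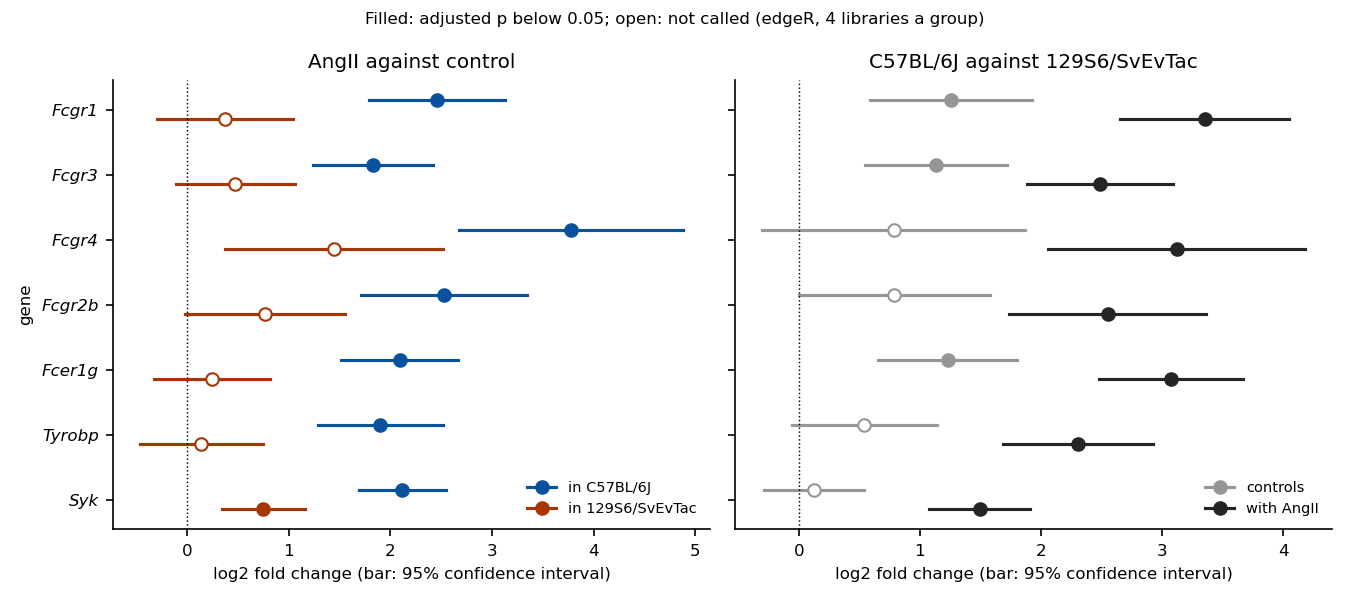
Log2 fold change with its 95% confidence interval for each gene, for AngII against control in each strain (left) and for the 2 strains compared within each treatment, C57BL/6J minus 129S6/SvEvTac (right), with filled points for calls. In C57BL/6J the AngII points run from 1.82 to 3.78 and all are filled, while in 129S6/SvEvTac they run from 0.14 to 1.44 and Syk alone is filled.

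Whether the strains differed in their response was tested as the AngII effect in C57BL/6J minus that in 129S6/SvEvTac. All 7 differences were called, against 5.34% of all genes called higher and 4.62% called lower, and their median was 1.76. For Fcgr1 the difference was 2.09 ± 0.44 on the log2 scale (SE, edgeR adjusted p = 0.00944), for Fcer1g 1.84 ± 0.38 (0.00844) and for Syk 1.37 ± 0.27 (0.00776). Tyrobp differed by 1.76 ± 0.40 (edgeR adjusted p = 0.0142). The calls of these 4 genes held whichever single library was left out. The remaining 3 were nearer the threshold, with 2.33 ± 0.70 for Fcgr4 (edgeR adjusted p = 0.0464), 1.76 ± 0.52 for Fcgr2b (0.0439) and 1.35 ± 0.38 for Fcgr3 (0.0380). Each of these 3 kept its call in 5 of 16 omissions of a single library. Fcgr2b and Fcgr3 kept it without C57BL/6J AngII replicate 2 or 3, 129S6/SvEvTac AngII replicate 1 or 5 or 129S6/SvEvTac control replicate 4. Fcgr4 kept it without C57BL/6J AngII replicate 2 or 3, C57BL/6J control replicate 3 or 129S6/SvEvTac control replicate 3 or 4. In the omissions that lost it, adjusted p reached 0.0908 for Fcgr2b, 0.0822 for Fcgr3 and 0.137 for Fcgr4, and the difference stayed positive. With the adipocyte score and the skeletal and cardiac muscle score as covariates, Fcgr1, Fcer1g and Syk kept their calls. In that fit Tyrobp (1.39, edgeR adjusted p = 0.0714), Fcgr2b (1.40, 0.168), Fcgr3 (0.88, 0.174) and Fcgr4 (1.16, 0.363) lost theirs. Among the macrophage markers 11 of 12 were called in the same comparison.

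The control aortas of the strains were then compared, to see which of these genes differed before treatment. In C57BL/6J 3 of the 7 were called higher, against 5.35% of all genes called higher and 5.06% called lower. They were Fcgr1 at 2.82 ± 0.224 against 1.17 ± 0.226 CPM (2.39-fold, edgeR adjusted p = 0.0164), Fcgr3 at 19.4 ± 2.66 against 8.81 ± 2.41 CPM (2.20-fold, 0.0139) and Fcer1g at 8.18 ± 0.796 against 3.48 ± 0.880 CPM (2.35-fold, 0.00692). These are 2 activating receptors and the chain they pair with. Every C57BL/6J control lay above every 129S6/SvEvTac control for these 3 and for Fcgr2b, 4 of 7 against 11.3% of all genes. Fcgr2b, at 10.2 ± 1.55 against 5.93 ± 2.18 CPM, was not called (log2 0.79 ± 0.37, edgeR adjusted p = 0.221). Without 129S6/SvEvTac control replicate 4, the lowest library, Fcgr1 (log2 1.13, edgeR adjusted p = 0.0620) and Fcgr3 (0.98, 0.0527) were no longer called, and Fcer1g remained called. Tyrobp (log2 0.54 ± 0.28, edgeR adjusted p = 0.278), Fcgr4 (0.78 ± 0.51, 0.409) and Syk (0.13 ± 0.19, 0.782) were not called. Syk was at 12.8 ± 2.32 CPM in C57BL/6J controls and 11.7 ± 2.03 in 129S6/SvEvTac controls. The macrophage markers had a median log2 difference of 0.43 in the same direction, with 1 of 12 called, and their summed level did not overlap between the control groups.

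With AngII the strains differed at every gene. All 7 were called higher in C57BL/6J, against 16.8% of all genes called higher and 14.6% called lower, and every C57BL/6J AngII library lay above every 129S6/SvEvTac AngII library for all 7, against 14.7% of all genes. Fcgr1 was at 9.01 to 21.1 CPM against 0.833 to 2.19 CPM, a 10.2-fold difference (log2 3.35 ± 0.33, edgeR adjusted p = 2.95e-06). Fcgr4 was at 6.58 ± 3.92 against 0.754 ± 0.0966 CPM, an 8.68-fold difference (3.12 ± 0.50, 0.000247). Fcer1g was at 21.0 to 46.1 CPM against 2.50 to 5.47 CPM, an 8.41-fold difference (3.07 ± 0.28, edgeR adjusted p = 1.45e-06). Fcgr1, Fcgr4 and Fcer1g thus had the largest strain differences. Fcgr2b (5.86-fold), Fcgr3 (5.61-fold), Tyrobp (4.94-fold) and Syk (2.82-fold, 55.7 ± 13.5 against 19.8 ± 3.59 CPM) followed, with edgeR adjusted p from 1.34e-05 to 0.000146. In the same comparison all 12 macrophage markers and 4 of 5 dendritic cell markers were called higher in C57BL/6J, and all 6 smooth muscle markers and 2 of 5 endothelial markers lower. Their part in the strain differences was not tested. This comparison shares its libraries with the comparisons above, so its values are not a separate line of evidence.

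Because macrophage markers rose in the same libraries, each gene was also read relative to them, as its log2 CPM minus the mean log2 CPM of the 12 markers in the same library. Of the markers, Csf1r shares 873 exon bases and Itgam 3450 with another gene, and their counts are uncertain to that extent. An exact two-sided permutation test was run for each gene in 4 comparisons, 28 tests in all. With 4 against 4 libraries the smallest possible p is 0.0286, and no test passed Benjamini-Hochberg adjustment (lowest adjusted p 0.0889). Relative to the markers Fcgr4 was at -5.52, -4.89, -5.01 and -6.02 in C57BL/6J controls and at -3.27, -4.21, -4.03 and -3.72 with AngII. Its groups did not overlap, and the difference was 1.55 (exact permutation p = 0.0286). Tyrobp was lower relative to the markers with AngII in every C57BL/6J library, by a difference of -0.15 (exact permutation p = 0.0286). Fcgr2b (0.48), Fcgr1 (0.36), Fcgr3 (-0.23), Syk (0.09) and Fcer1g (0.02) overlapped between C57BL/6J AngII and control. With 4 libraries a group these 5 differences were not told apart from 0, which does not show that they were 0. For AngII in 129S6/SvEvTac every gene overlapped between the groups, which does not show an absence of difference either. Fcgr4 relative to the markers had a mean of -5.66 in 129S6/SvEvTac controls and -4.46 with AngII (exact permutation p = 0.0571). Syk (0.41, exact permutation p = 0.0571), Fcgr2b (0.31) and Fcgr3 (0.11) also had higher means with AngII in that strain. Tyrobp (-0.21), Fcer1g (-0.11) and Fcgr1 (-0.07) had lower ones.

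The same relative levels were compared between strains, where no test passed adjustment either. In controls Fcer1g relative to the markers was -1.29, -1.14, -1.40 and -1.34 in C57BL/6J and -1.99, -1.93, -2.08 and -2.03 in 129S6/SvEvTac. The groups did not overlap, and the difference was 0.71 (exact permutation p = 0.0286). Fcgr1 (0.71) and Fcgr3 (0.62) were likewise higher relative to the markers in every C57BL/6J control (exact permutation p = 0.0286 each), whereas Tyrobp (0.03), Fcgr2b (0.31), Fcgr4 (0.30) and Syk (-0.42) overlapped. With AngII, Fcgr1 (1.14), Fcer1g (0.84) and Fcgr4 (0.65) lay higher in every C57BL/6J library, and Syk lay lower in every one (-0.74), with the same exact permutation p of 0.0286. Syk relative to the markers was -0.84, -0.22, -0.53 and -0.68 in C57BL/6J AngII and 0.18, 0.36, 0.24 and -0.10 in 129S6/SvEvTac AngII.

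**Figure D3:**
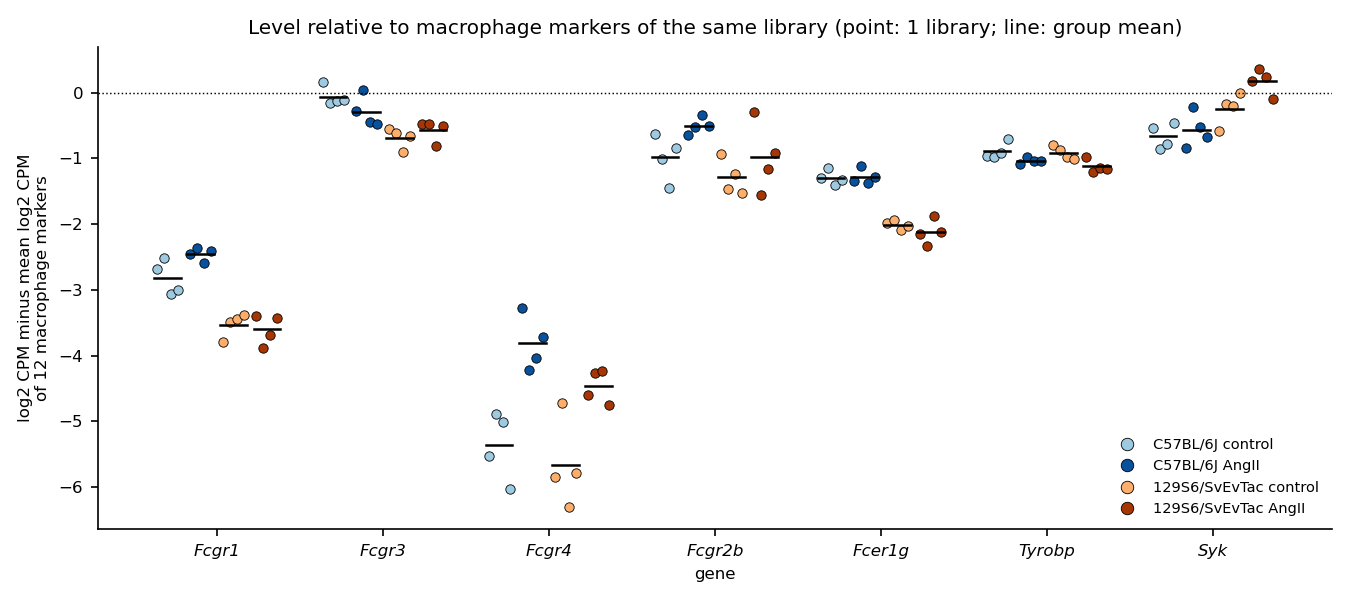
Log2 CPM of each gene minus the mean log2 CPM of 12 macrophage markers in the same library (vertical axis), with a point per library, a line at each group mean and the 4 groups in colour. Fcgr1 and Fcer1g lie higher in both C57BL/6J groups than in both 129S6/SvEvTac groups, Tyrobp lies between -1.20 and -0.70 in all libraries, and Fcgr4 is the gene with the widest spread.

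Ratios within the family were compared in the same way, as differences of log2 CPM in 16 exact two-sided permutation tests, none of which passed adjustment (lowest adjusted p 0.114). The ratio of Fcer1g to Tyrobp, the 2 adaptors, was -0.33, -0.17, -0.49 and -0.63 in C57BL/6J controls and -1.19, -1.06, -1.11 and -1.02 in 129S6/SvEvTac controls. The strains did not overlap, and the difference was 0.69 (exact permutation p = 0.0286). With AngII the strain difference of this ratio was 0.76 (exact permutation p = 0.0286), while AngII itself moved it by 0.17 in C57BL/6J and 0.09 in 129S6/SvEvTac with overlap. The ratio of the activating Fcgr3 to the inhibitory Fcgr2b was 0.79, 0.85, 1.32 and 0.72 in C57BL/6J controls and 0.36, 0.56, -0.11 and 0.02 with AngII. It was lower in every AngII library, by a difference of -0.71 (exact permutation p = 0.0286), and the near-identical sequence of these 2 genes makes this ratio the least certain. The ratio of Fcgr4 to Fcgr2b was higher with AngII in C57BL/6J by 1.07 with overlap (exact permutation p = 0.0857). The ratio of Fcgr1 to Fcgr2b with AngII was higher by 0.66 in C57BL/6J than in 129S6/SvEvTac, without overlap (exact permutation p = 0.0286).

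Within groups the genes varied together. Correlations of the deviations of log2 CPM from group means over the 16 libraries, given as a description, ran from 0.37 for Fcgr2b with Fcgr4 to 0.94 for Fcer1g with Tyrobp. Fcgr4, which has the lowest counts, gave the lowest correlations with each of the other genes, from 0.37 to 0.71. Among 10863 other genes whose mean reached 5 CPM, the 10 whose log2 CPM was most correlated with the mean of the 7 genes were Ctss, Laptm5, Lyz2, C1qb, Adgre1, C1qa, Cotl1, Rgs10, Fcrls and Csf2ra. Pearson's r over the 16 libraries lay between 0.981 for Csf2ra and 0.992 for Ctss, and for deviations from group means between 0.784 for Fcrls and 0.989 for C1qb. Ctss, which encodes the lysosomal protease cathepsin S, had a mean of 146 CPM in C57BL/6J AngII, beside 16.8 CPM in C57BL/6J controls, 10.2 CPM in 129S6/SvEvTac controls and 16.4 CPM in 129S6/SvEvTac AngII. Lyz2, C1qb, Adgre1 and C1qa are among the 12 macrophage markers, and all points share the same libraries.

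Other genes of the pathway were read from lists. The counts of these and later lists stand beside the shares of all genes tested. Called higher were 21.8% for AngII in C57BL/6J, 5.34% for the difference of effects and 16.8% between strains with AngII. Called lower were 17.1%, 4.62% and 14.6% in the same order. Of 6 proximal kinases, the Src-family and Tec-family enzymes that act beside Syk, all 6 were called higher with AngII in C57BL/6J (median log2 fold change 2.15). In 129S6/SvEvTac edgeR called none of them, with 1 at an unadjusted p below 0.05. Lyn, the Src-family kinase that phosphorylates both activating and inhibitory receptor motifs, was at 7.34 ± 1.64 CPM in C57BL/6J controls and 40.8 ± 10.2 CPM with AngII (5.56-fold, edgeR adjusted p = 2.21e-06), and shares 248 exon bases with another gene. Btk rose 6.22-fold (edgeR adjusted p = 2.25e-05) and Tec 4.03-fold (0.000300). The difference between strains was called for 4 of the 6. With AngII 5 of 6 were higher in C57BL/6J, among them Lyn (4.08-fold) and Btk (4.43-fold).

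Of 15 receptors that pair with Fcer1g or Tyrobp, 13 were tested and 9 were called higher in C57BL/6J (median log2 fold change 2.85). Clec4n, the dectin-2 receptor that signals through Fcer1g, was at 1.21 ± 0.329 CPM in controls and 13.5 ± 3.93 CPM with AngII (11.1-fold, edgeR adjusted p = 3.79e-05). Trem2, the lipid-sensing receptor that signals through Tyrobp, was at 1.74 ± 0.306 and 12.6 ± 3.51 CPM (7.23-fold, edgeR adjusted p = 0.000105), and Clec4e, the mincle receptor, rose 7.35-fold (0.000666). In 129S6/SvEvTac Clec4n was the 1 gene of the list called, beside 7.71% of all genes called higher. It was at 0.567 ± 0.369 CPM in controls and 1.66 ± 0.800 CPM with AngII with overlap (2.95-fold, edgeR adjusted p = 0.0353). Between strains with AngII 11 of the 13 were called higher in C57BL/6J, among them Clec4n (8.07-fold) and Trem2 (6.01-fold). In controls edgeR called none, with 2 at an unadjusted p below 0.05.

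Of 21 genes acting downstream of Syk, 16 were called higher and 1 lower in C57BL/6J (median log2 fold change 1.46). In 129S6/SvEvTac edgeR called none, with 3 at an unadjusted p below 0.05. Pik3r5, a regulatory subunit of phosphoinositide 3-kinase gamma, rose 7.23-fold (edgeR adjusted p = 3.07e-06) and Nckap1l, a leukocyte subunit of the actin-regulating WAVE complex, 5.71-fold (3.87e-06). Bcl10, which relays signals to NF-kappaB, rose 1.68-fold (edgeR adjusted p = 8.57e-06). The gene called lower was Prkcd, a protein kinase C isoform that is also widely expressed, with a log2 fold change of -0.42 (edgeR adjusted p = 0.00291). Between strains with AngII 16 were called higher in C57BL/6J, with Sh3bp2 (2.08-fold) and Nckap1l (4.53-fold) the first by p, and 2 lower, Prkcd and Malt1. In controls Vav3, a guanine nucleotide exchange factor, was called lower in C57BL/6J (log2 -0.71, edgeR adjusted p = 0.00698), beside 5.06% of all genes.

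Of 17 inhibitory receptors and phosphatases, 15 were called higher in C57BL/6J (median log2 fold change 1.65). Inpp5d, which encodes the SHIP1 phosphatase recruited by Fcgr2b, was at 8.22 ± 0.832 CPM in controls and 33.4 ± 11.2 CPM with AngII (4.06-fold, edgeR adjusted p = 2.63e-05). Lilrb4a, whose exons share 1977 bases with other genes and whose count is uncertain, rose 6.21-fold (edgeR adjusted p = 6.96e-06), and Pirb, an inhibitory receptor of myeloid cells, 5.67-fold (6.85e-05). In 129S6/SvEvTac Inpp5d (1.83-fold, edgeR adjusted p = 0.0339) and Dok1 (1.65-fold, 0.0127) were called higher without overlap, beside 7.71% of all genes called higher. In controls Cbl (1.37-fold, edgeR adjusted p = 0.0138) and Lair1 (3.15-fold, 0.0298) were higher in C57BL/6J and Inppl1 lower (log2 -0.32, 0.0368). Over all genes 5.35% were called higher and 5.06% lower in that comparison. With AngII 13 of 17 were higher in C57BL/6J, the first by p being Lilrb4a (6.78-fold) and Ptpn6 (5.26-fold), which encodes SHP-1. Ptpn6 shares 195 exon bases and Inppl1 1299 with other genes, so their counts are uncertain too.

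**Figure D4:**
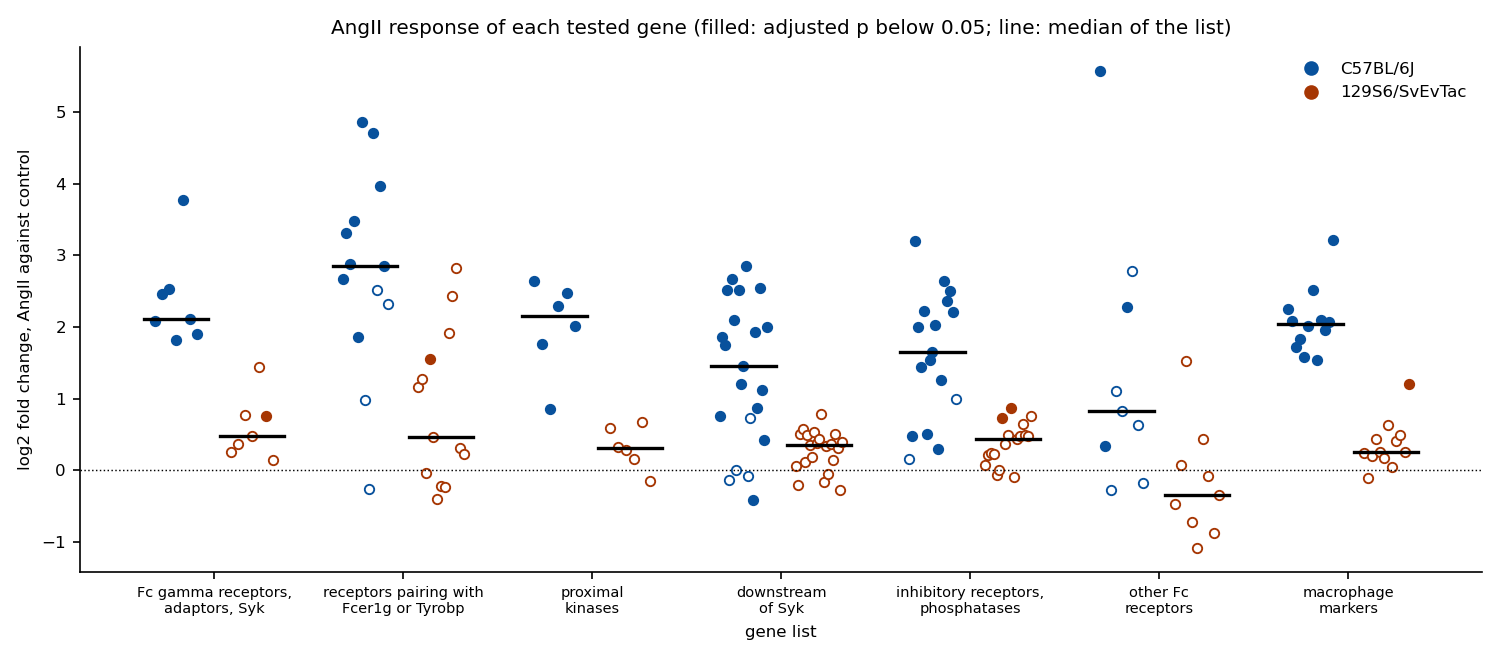
Log2 fold change of AngII against control (vertical axis) for every tested gene of 7 lists, in C57BL/6J and in 129S6/SvEvTac, with filled points for calls and a line at each median. In C57BL/6J the medians of the lists run from 0.82 for the other Fc receptors to 2.85 for the receptors that pair with the adaptors, and in 129S6/SvEvTac from -0.35 to 0.47.

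Of 14 other Fc receptors and Fc receptor-like genes, 9 were tested and 3 were called higher in C57BL/6J (median log2 fold change 0.82). Over all genes tested 21.8% were called higher, so this count says little about the list. In 129S6/SvEvTac edgeR called none, and 0 had an unadjusted p below 0.05. Fcrls, an Fc receptor-like gene of macrophages, was at 12.4 ± 1.52 CPM in controls and 59.7 ± 17.0 CPM with AngII (4.83-fold, edgeR adjusted p = 1.25e-05), and with AngII it was 6.01-fold higher in C57BL/6J than in 129S6/SvEvTac. Fcgrt, the neonatal receptor that recycles immunoglobulin G and is expressed outside leukocytes, was at 118 ± 4.36 CPM in controls and 149 ± 31.8 CPM with AngII (1.27-fold, edgeR adjusted p = 0.0421), with overlap. Fcer1a, the mast cell and basophil receptor for immunoglobulin E, was called at 0.0168 ± 0.0335 and 0.996 ± 0.768 CPM (edgeR adjusted p = 0.0235), too few control counts for a useful fold.

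Transcripts of immunoglobulin G, the ligand of these receptors, had few counts in these aortas. Both strains were aligned to 1 reference, so 129S6/SvEvTac transcripts that differ from it could have been missed. Each of the immunoglobulin G heavy chain genes Ighg1, Ighg2b, Ighg2c and Ighg3 had a mean of at most 0.152 CPM in any group, and none of the 4 had enough counts to be tested. Of the 4 immunoglobulin genes tested none was called with AngII in either strain (edgeR, adjusted p from 0.0908 to 0.747, with 1 gene in each strain at an unadjusted p below 0.05). Ighm was called between strains with AngII, at 24.2 ± 15.6 CPM in C57BL/6J and 8.28 ± 1.73 CPM in 129S6/SvEvTac (2.92-fold, edgeR adjusted p = 0.0306). Antibody protein from the blood is not measured by these data.

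Markers of other cell types that can carry Fc gamma receptors were read from lists. Neutrophil markers summed to between 8.97 and 13.9 CPM in C57BL/6J AngII, with Camp at 0, and to between 1.27 and 35.8 CPM in controls, and edgeR called none of 6 tested (0 at an unadjusted p below 0.05). Between strains with AngII 1 of the 6 was called higher in C57BL/6J, near the 16.8% of all genes called higher. Natural killer cell markers summed to at most 5.07 CPM in any library, edgeR called none of 5 tested for AngII in C57BL/6J (0 at an unadjusted p below 0.05), and Ncr1, Klrb1c, Klre1 and Prf1 were at 0 in all 129S6/SvEvTac AngII libraries. Between strains with AngII 2 of the 5 were called higher in C57BL/6J. B cell markers summed to at most 10.3 CPM and T cell markers to at most 10.3 CPM, and edgeR called none of either list for AngII in C57BL/6J (0 and 1 at an unadjusted p below 0.05). Dendritic cell markers were called higher for 4 of 5 tested in C57BL/6J, with a summed level of 27.1 to 41.5 CPM beside 17.8 to 21.6 CPM in controls, and Cd209a was at 0 in both 129S6/SvEvTac groups. Mast cell markers were called higher for 5 of 6 and lower for 1, with sums of 19.8 to 103 CPM and 24.5 to 40.1 CPM. Which cells carried the Fc receptor transcripts was not tested.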

How the data were processed

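Members and gene lists were chosen with earlier results of these data known. The authors deposited 1 table of estimated counts for each gene and library, rounded to whole numbers. HISAT2 alignment to mm10 (GRCm38) and StringTie quantification on Gencode are recorded per the labels' protocols. The submitters' processing notes also list R 3.6.2 and DESeq2 1.26.0 without saying for what. The sources used here do not state the Gencode release, how counts were derived or whether strand was used. Both strains were aligned to 1 reference, and the effect of strain sequence on the strain comparisons was not tested. Names and positions came from GENCODE M21, which matched 52489 of 52636 genes; the other 147 held 0.033 to 0.0431% of counts.

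The edgeR 4.0.16 package (R 4.3.3) was used for the tests. The steps were filterByExpr with a minimum count of 10 (17125 genes), TMM scaling and a robust quasi-likelihood fit of 1 mean per group over all 16 libraries. Adjusted p below 0.05 (Benjamini-Hochberg) made a call. CPM per kilobase used the union of exons, and log2 CPM a prior count of 2. No 2 replicates were identical (lowest chi-square per degree of freedom 40.92). The pipeline was tested on simulated data. Alternatives were RLE scaling, library totals only, 2 other filters, DESeq2 1.42.0, limma voom (3.58.1) with sample quality weights, a replicate block, fits of only the groups compared, marker covariates, omission of each library and of 2 together, a pan-leukocyte reference and a prior count of 0.5. Named genes were the 7 members, from each pathway list the 3 with the smallest p called for AngII in C57BL/6J and up to 2 per other comparison, and the 10 most alike genes. Prkcd, Malt1 and Inppl1 were named beyond this rule after their values were seen.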

Additional observations from a re-analysis of the deposited data

Results flagged for a closer look

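The AngII effect differed between the strains for all 7 genes by the test of the difference itself in edgeR, against 5.34% of all genes called in that direction. The effect in C57BL/6J minus that in 129S6/SvEvTac, on the log2 scale, was 2.33 for Fcgr4, 2.09 for Fcgr1, 1.84 for Fcer1g, 1.76 for Fcgr2b, 1.76 for Tyrobp, 1.37 for Syk and 1.35 for Fcgr3. The calls of Fcgr2b, Fcgr3 and Fcgr4 each held in 5 of 16 omissions of a single library. With the adipocyte score and the skeletal and cardiac muscle score as covariates 3 of the 7 calls held. Of the 28 sets of 4 libraries tested (7 genes in 4 groups), none had a library that stood apart from the others by Dixon's criterion.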

How the results depend on the processing

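The calls of all 7 genes for AngII in C57BL/6J and between strains with AngII held, in each comparison, in all 112 omissions of a single library (7 genes, 16 libraries) and all 70 other combinations of gene and setting. Omission of a library outside the groups compared is a weaker check, because it acts only through the filter, the scaling and the shared spread. For AngII in 129S6/SvEvTac, where 1 gene was called, the count was 0 with library totals only and with the replicate block. It was also 0 without both C57BL/6J AngII replicate 1 (highest adipocyte score) and 129S6/SvEvTac AngII replicate 5 (highest skeletal and cardiac muscle score). The count was 2 with DESeq2, and 0 to 2 with a single library left out. For the difference of effects, where 7 were called, the count was 4 without a filter and 4 to 7 with a library left out. It was 3 with the adipocyte score and the skeletal and cardiac muscle score as covariates. For control strains, where 3 were called, it was 1 to 3 with a library left out, the lowest without 129S6/SvEvTac control replicate 4.

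The number of genes called for the difference of effects (1706) was 2663 with DESeq2, 2670 with limma voom and sample quality weights, 801 with the covariates, 1049 without both libraries and 1039 to 2990 with a single library left out, the highest without C57BL/6J AngII replicate 3 and the lowest without 129S6/SvEvTac control replicate 2. The number was 4220 with the covariates for AngII in C57BL/6J (6664 otherwise), 3324 with weighted limma voom for AngII in 129S6/SvEvTac (2087), and 3209 with weighted limma voom and 2772 with only the groups compared for control strains (1783). Signs turned where values were near 0. The Tyrobp log2 fold change, AngII in 129S6/SvEvTac, was -0.0158 with library totals only, -0.0276 with the covariates, -0.0320 without both libraries and -0.0513 to 0.274 with a library left out. The Syk log2 fold change, strains in control, was -0.0282 with the replicate block. With pan-leukocyte markers as the reference in place of macrophage markers, 3 values changed sign. They were Fcer1g relative to macrophage markers, AngII in C57BL/6J (-0.16), Syk relative to macrophage markers, AngII in C57BL/6J (-0.0818) and Fcgr3 relative to macrophage markers, AngII in 129S6/SvEvTac (-0.19). With a prior count of 0.5 the log2 ratio of Fcgr4 to Fcgr2b, strains in control, was 0.0746. The cause was not tested.

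What the replicate numbers mark is not stated in the labels, and deviations of same-numbered libraries correlated by -0.06 to 0.15. With the replicate block Syk for AngII in 129S6/SvEvTac (edgeR adjusted p = 0.0504), Fcgr1 between control strains (0.0501) and Fcgr4 for the difference of effects (0.101) were not called, and the other calls of the 7 genes held. Omissions leave 3 against 4 libraries, where an exact p cannot go below 0.0571, so the relative levels were not tested there. Depth limits Fcgr4 most, with 6 to 36 counts in each control library.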
